A study of Mus musculus with 6 samples.

Results

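The 55 genes described here encode the mitotic cyclins and CDK1, the mitotic kinases, the spindle checkpoint, the activators of the anaphase-promoting complex, the chromosomal passenger complex, the kinetochore, the mitotic kinesins, the spindle midzone, and the transcription factors FOXM1 and B-MYB. They were chosen by gene symbol for these roles, not by a threshold on their values, and all 55 were among the 20588 genes counted. Polyadenylated RNA was sequenced from 3 Pnpla2 knockout libraries (genotype Pnpla2PKO, here PKO 1, PKO 2 and PKO 3) and 3 wild-type libraries (WT 1, WT 2 and WT 3). Pnpla2 encodes adipose triglyceride lipase, which starts the breakdown of stored triglyceride. Both genotypes were C57BL/6NJ mice aged 2 months, and both gave satellite cells, the stem cells of skeletal muscle, sorted from hind limb muscles. All cells spent 7 days in a growth medium and a further 16 h in DMEM holding 2% horse serum, a low-serum step used to make myoblasts leave the cell cycle and differentiate. The Cre driver or other means of deletion is not given in the sources used here. Whether the 3 libraries of a genotype stand for separate animals or cultures is not in the labels; p-values thus measure library-to-library spread only, which may be technical.

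A dividing cell builds up cyclins A and B, which switch on the kinase CDK1 and so start mitosis. Polo, Aurora and checkpoint kinases then act on spindle, centromere and kinetochore until every chromosome is attached, after which the anaphase-promoting complex with its activator CDC20 marks securin and cyclin B for destruction. Most of these genes are transcribed together late in the cycle, by the MuvB complex with B-MYB and FOXM1 and by the CCAAT-binding factor NF-Y, and they are silent in quiescent cells and in myoblasts that have left the cycle to fuse. Their transcripts in a muscle stem cell culture therefore serve as a readout of cells in late S phase, G2 and mitosis.

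Promoters of 47 of the 55 genes were matched by symbol to RefSeq windows of the GRCm38.p6 assembly, which run from 250 bases before to 50 bases after the annotated start; where a gene had several windows (4 genes), the one nearest to the deposited gene start was used. The motifs searched, on both strands, were the CCAAT box and the cell cycle homology region (CHR, the site bound by the MuvB subunit LIN54), taken as TTTGAA or TTCGAA. The CHR form with CG at its centre reads the same on both strands, and the box and the CHR can overlap by at most 1 end base. A CCAAT box was present for 34 of the 47 genes (72.34%), against 12289 of all 32851 mouse promoters in the table (37.41%). For the CHR it was 36 of 47 (76.6%) against 6316 (19.23%), and for both motifs together 31 of 47 (65.96%) against 2472 (7.52%). At least 2 CCAAT boxes were found for 23 of the 47 genes (48.94%) against 11.7% of all promoters. Neither motif was found for 8 genes, namely Birc5, Cenpt, Mad2l1, Melk, Mybl2, Nuf2, Nusap1 and Pttg1. A match of these letters is a description of the window and not evidence of binding.

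**Figure D1:**
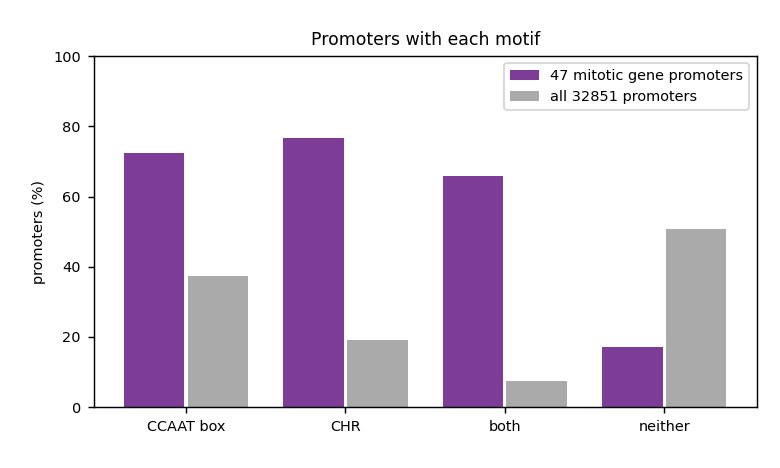
Share of promoters (y axis, percent) with a CCAAT box, a CHR, both or neither in the window from 250 bases before to 50 after the start, for the 47 matched mitotic genes (purple) and for all 32851 promoters (grey). Both motifs stand together in 65.96% of the mitotic gene promoters and in 7.52% of all promoters.

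The promoters of 6 genes are shown because they span the behaviours described further on: Ccnb2, Cdk1, Plk1, Cdc20 and Aurka, which encode a cyclin, its kinase, 2 mitotic kinases and the activator of the anaphase-promoting complex, and Bub3, a checkpoint gene whose log2 fold change was the closest to 0. Each is written 5′ to 3′ on the gene's strand, and capitals mark CCAAT and CHR letters, read as ATTGG or TTCAAA where the motif lies on the opposite strand. The windows are chr9:70421505-70421804 (minus strand) for Ccnb2, chr10:69352863-69353162 (minus) for Cdk1, chr7:122159185-122159484 (plus) for Plk1, chr4:118437294-118437593 (minus) for Cdc20, chr2:172370521-172370820 (minus) for Aurka and chr7:131560120-131560419 (plus) for Bub3.
Ccnb2: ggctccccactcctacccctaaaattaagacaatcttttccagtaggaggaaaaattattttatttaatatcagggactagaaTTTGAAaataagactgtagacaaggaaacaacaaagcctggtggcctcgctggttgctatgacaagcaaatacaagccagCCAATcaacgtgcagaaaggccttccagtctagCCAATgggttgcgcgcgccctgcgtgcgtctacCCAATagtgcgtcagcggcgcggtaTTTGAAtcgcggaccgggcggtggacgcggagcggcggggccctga
Cdk1: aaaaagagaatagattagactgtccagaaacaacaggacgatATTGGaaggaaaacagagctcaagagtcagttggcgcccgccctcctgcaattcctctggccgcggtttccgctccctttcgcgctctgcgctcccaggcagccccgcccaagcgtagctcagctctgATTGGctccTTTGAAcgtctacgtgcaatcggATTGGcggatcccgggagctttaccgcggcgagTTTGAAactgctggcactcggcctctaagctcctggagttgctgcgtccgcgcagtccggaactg
Plk1: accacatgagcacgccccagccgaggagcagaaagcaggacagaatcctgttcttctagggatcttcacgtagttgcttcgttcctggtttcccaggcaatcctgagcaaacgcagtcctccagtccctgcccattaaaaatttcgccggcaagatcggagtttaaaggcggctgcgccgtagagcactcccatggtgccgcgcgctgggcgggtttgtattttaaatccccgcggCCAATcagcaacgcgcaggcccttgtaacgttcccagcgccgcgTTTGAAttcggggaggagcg
Cdc20: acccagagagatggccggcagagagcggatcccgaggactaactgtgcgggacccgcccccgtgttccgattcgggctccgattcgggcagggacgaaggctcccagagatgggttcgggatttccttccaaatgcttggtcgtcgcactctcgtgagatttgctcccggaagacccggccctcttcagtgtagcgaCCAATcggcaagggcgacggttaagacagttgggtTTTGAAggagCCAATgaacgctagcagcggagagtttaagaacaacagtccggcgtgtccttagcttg
Aurka: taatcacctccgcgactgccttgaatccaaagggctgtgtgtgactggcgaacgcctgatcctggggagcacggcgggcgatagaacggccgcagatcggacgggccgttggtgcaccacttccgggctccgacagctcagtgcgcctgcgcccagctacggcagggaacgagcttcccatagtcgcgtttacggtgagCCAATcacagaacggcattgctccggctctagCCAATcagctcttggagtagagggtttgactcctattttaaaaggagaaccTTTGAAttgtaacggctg
Bub3: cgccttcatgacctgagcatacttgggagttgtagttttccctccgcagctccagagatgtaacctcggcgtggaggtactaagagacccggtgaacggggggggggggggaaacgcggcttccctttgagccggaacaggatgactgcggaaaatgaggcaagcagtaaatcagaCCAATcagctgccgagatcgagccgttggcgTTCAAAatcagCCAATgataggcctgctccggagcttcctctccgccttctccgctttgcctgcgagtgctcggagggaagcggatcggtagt

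The Ccnb2 and Cdk1 windows hold 3 CCAAT boxes and 2 CHRs each, those of Cdc20, Aurka and Bub3 hold 2 CCAAT boxes and 1 CHR, and the Plk1 window holds 1 of each. The Bub3 window thus carries the same 2 motifs as those of Cdc20 and Aurka.

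Total counts were 17237752 to 18839151 in the PKO libraries and 15580176 to 18651348 in the WT libraries, and single member counts ran from 13 (Cenpm in WT 1) to 4750 (Top2a in WT 3). Levels are given as CPM, counts scaled to a common library size with TMM factors. As a check of the labels, Pnpla2 itself (chromosome 7, 141455198 to 141460743, plus strand, GRCm38) was at 8.47, 16.0 and 15.5 CPM in PKO 1, 2 and 3, against 21.1, 38.5 and 33.7 CPM in WT 1, 2 and 3. The genotypes did not overlap, with an exact two-sided permutation p of 0.1, the smallest that 3 against 3 libraries allow, and a mean of 13.3 ± 4.20 CPM in PKO against 31.1 ± 8.96 CPM in WT (SD, n = 3 each). The log2 fold change (PKO over WT) of Pnpla2 was -1.22 ± 0.31 (SE, edgeR adjusted p = 0.19, DESeq2 0.00796); which exons were deleted is not in the labels, and the counts span the whole gene. WT 1 stood apart from WT 2 and WT 3 in the mitotic genes, as the values below show, so the calls among these genes are also given with WT 1 left out. That choice was made with these data in view, and it removes the WT library in which the genes were low.

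Relative to WT 2 and WT 3, mitotic transcripts were several times scarcer in all PKO libraries and also in WT 1. Summed over the 55 genes they made up 1048, 906 and 1187 CPM in PKO 1, 2 and 3, against 833, 2932 and 3004 CPM in WT 1, 2 and 3. The PKO sums lie close together just above WT 1, while the WT sums hold the lowest and both of the highest libraries. In RNA from whole cultures, fewer dividing cells and less of these RNAs per dividing cell cannot be told apart. WT 2 and WT 3 were the 2 highest libraries for 52 of the 55 genes, against 20.4% of all 14025 genes tested, and the exceptions were Cdc25b, Bub3 and Pttg1. PKO 2 was the lowest of the 6 libraries for 15 of them, PKO 1 and WT 2 for 1 each, and WT 1 for 38, against 16.7% of all genes tested. The highest PKO library exceeded the lowest by a median of 1.46 times (1.08 to 4.09), the highest WT library the lowest by a median of 4.18 times (1.12 to 10.4), and WT 2 and WT 3 differed by a median of only 1.07 times. Within the knockout, PKO 3 was the highest of the 3 libraries for 42 genes and PKO 2 the lowest for 37.

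**Figure D2:**
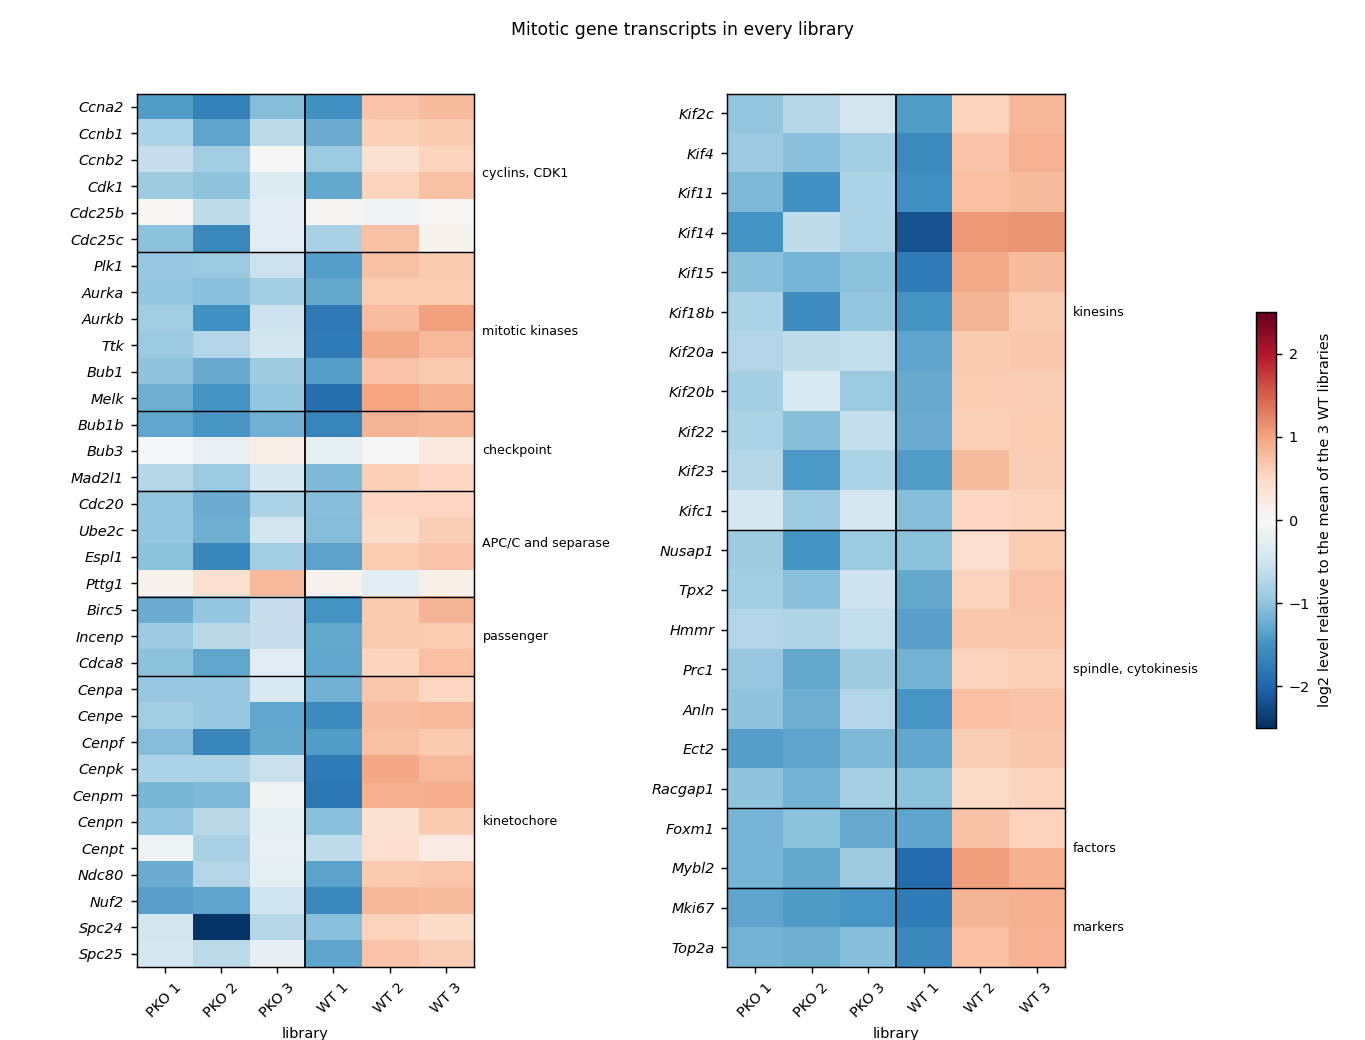
Level of each of the 55 genes (rows, grouped by role) in each library (columns, PKO 1 to PKO 3 and then WT 1 to WT 3), as the log2 CPM minus the mean of the 3 WT libraries on the colour scale. The PKO columns and the WT 1 column are low for most rows, WT 2 and WT 3 are high, and Cdc25b, Bub3 and Pttg1 break the pattern.

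Set against this spread, 0 of the 55 genes passed edgeR's quasi-likelihood test at a Benjamini-Hochberg adjusted p under 0.05, and the same holds for all 14025 genes tested (0% lower, 0% higher); the members' adjusted p ran from 0.211 for Ect2 to 0.96 for Bub3. The log2 fold change (PKO over WT) was negative for 54 of the 55, against 51.7% of all genes tested, with a median of -1.16 over the members and -0.02 over all genes. At an unadjusted p under 0.05, 23 members were lower and 0 higher, beside 6.35% lower and 10.2% higher over all genes. DESeq2 called 10 members lower at its own adjusted p under 0.05 (background 0.933% lower, 4.73% higher): Mki67, Ect2, Ccna2, Cenpf, Bub1b, Foxm1, Top2a, Racgap1, Prc1 and Cdc20. Counting by the authors' deposited table, 10 members had an adjusted p under 0.05, all lower, beside 1% of its genes, and 9 of them are among the 10 just named. No member had all PKO libraries outside the WT range, in either direction, although 9.7% of all genes tested lay wholly lower and 11.8% wholly higher. With WT 1 left out edgeR called 46 of the 55 lower and 0 higher, beside 3.32% lower and 3.55% higher over all genes, and the median was -1.59. With WT 1 and PKO 1 both left out it again called 46, the same genes, beside 5.63% of all genes. Calls without WT 1 concern 3 PKO against 2 WT libraries and assume that WT 2 and WT 3 represent their genotype. Over genes, WT 2 and WT 3 differed by a chi-square of 6.61 per degree of freedom, against 56.6 to 80.8 for other pairs within a genotype. Whether WT 2 and WT 3 are independent is not in the labels.

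**Figure D3:**
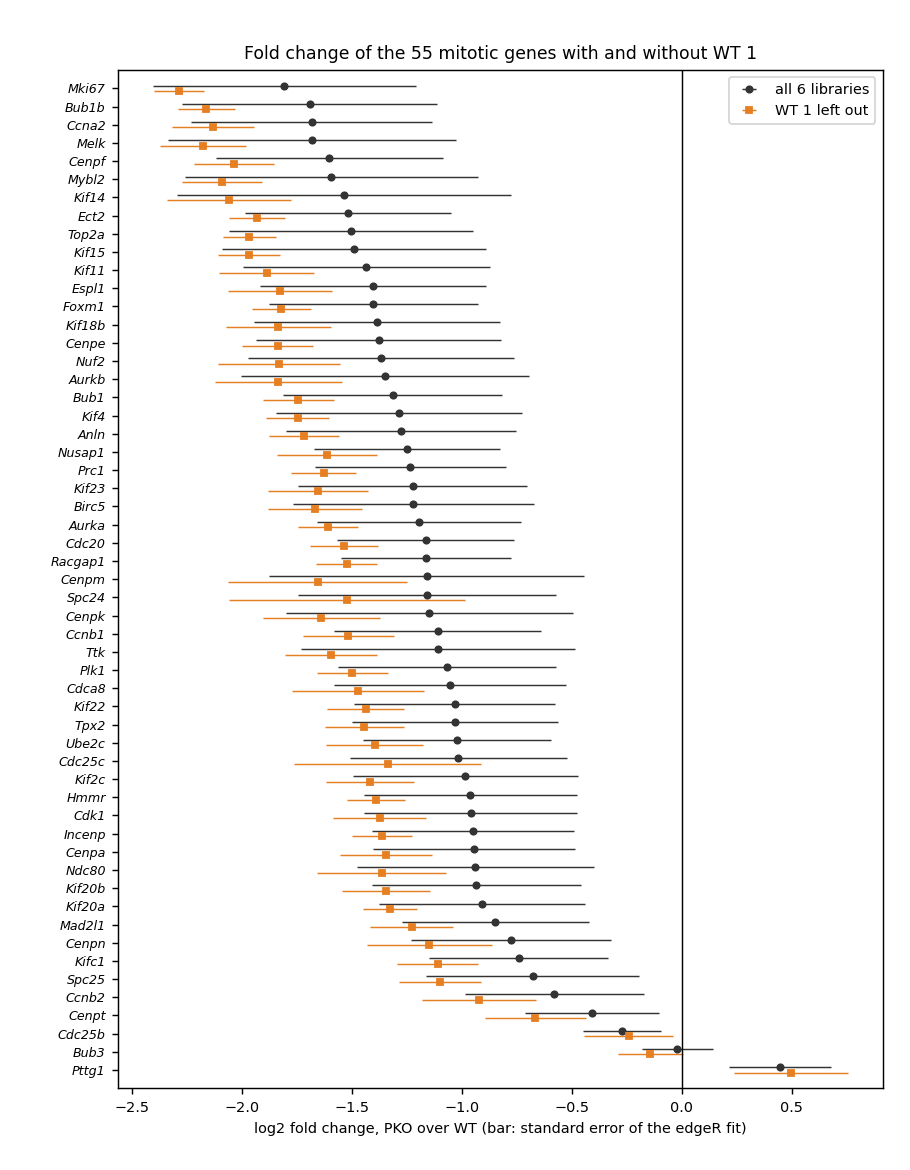
Log2 fold change, PKO over WT, of each of the 55 genes (x axis) with all 6 libraries (black circles) and with WT 1 left out (orange squares). Bars are standard errors derived from the F statistic of the edgeR fit. With all libraries 54 of the 55 points lie below 0 with wide bars, and without WT 1 the median moves to -1.59, while Bub3, Cdc25b and Pttg1 stay close to 0 or above it.

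The proliferation marker Mki67 had the most negative log2 fold change of all, and the topoisomerase gene Top2a showed the same order of genotypes. Mki67, whose protein coats mitotic chromosomes, was at 44.9, 42.2 and 40.6 CPM in PKO 1, 2 and 3, against 33.7, 204 and 209 CPM in WT 1, 2 and 3. The PKO libraries agree to within a few CPM of 42.6 ± 2.17 CPM, and WT, at 149 ± 99.9 CPM (SD, n = 3 each), is divided between WT 1 below them and WT 2 and WT 3 far above. Its log2 fold change was -1.81 ± 0.60 (SE; edgeR adjusted p = 0.232, DESeq2 0.0129, and edgeR 0.00514 without WT 1), and in the authors' deposited table its adjusted p was 0.137. The value without WT 1 follows the removal of the library in which Mki67 was lowest, a choice made with these data in view. Top2a, which untangles sister chromatids, was at 62.9, 61.0 and 68.4 CPM in PKO 1, 2 and 3, against 46.7, 239 and 260 CPM in WT 1, 2 and 3 (log2 fold change -1.50 ± 0.56, edgeR adjusted p = 0.268, DESeq2 0.0392).

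The cyclins, Cdk1 and Cdc25c were highest in WT 2 and WT 3, an order held by 20.4% of all genes tested. Cdc25b, the other of the 2 activating phosphatase genes, did not show it. The cyclins and Cdk1 had log2 fold changes of -1.68 to -0.58. Ccna2 (cyclin A2; chromosome 3, 36564866 to 36572150) was at 16.6, 13.5 and 20.5 CPM in PKO 1, 2 and 3, against 15.2, 71.6 and 75.6 CPM in WT 1, 2 and 3. With a log2 fold change of -1.68 ± 0.55 it fell in DESeq2 (adjusted p = 0.0162) but not in edgeR (0.227). Exons of Exosc9 on the other strand cover 12.5% of its exon bases. Ccnb1, the main mitotic cyclin, was at 26.3, 17.8 and 28.5 CPM in PKO 1, 2 and 3, against 18.8, 67.8 and 70.0 CPM in WT 1, 2 and 3 (-1.11 ± 0.47, edgeR adjusted p = 0.303). Ccnb2, another B-type cyclin found at the Golgi, was at 13.2, 10.8 and 19.6 CPM in PKO 1, 2 and 3, against 10.3, 25.7 and 29.0 CPM in WT 1, 2 and 3. Its difference was among the smallest here (-0.58 ± 0.41, edgeR adjusted p = 0.495) and did not pass without WT 1 either (0.0867). Cdk1, the kinase that the cyclins switch on, was at 23.0, 21.1 and 33.4 CPM in PKO 1, 2 and 3, against 17.4, 62.6 and 70.7 CPM in WT 1, 2 and 3 (-0.96 ± 0.48, edgeR adjusted p = 0.361, 0.0196 without WT 1). For Ccnb2 and Cdk1, WT 1 lay below every PKO library, and for Ccna2 and Ccnb1 it lay among them. Values without WT 1 follow the removal of a WT library in which these genes were low, a choice made with these data in view.

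Cdc25b and Cdc25c encode phosphatases that remove the inhibitory phosphates from CDK1. Cdc25b was at 72.1, 45.2 and 57.4 CPM in PKO 1, 2 and 3, against 73.5, 65.7 and 71.4 CPM in WT 1, 2 and 3. Here PKO averaged 58.2 ± 13.5 CPM and WT 70.2 ± 4.06 CPM (SD, n = 3 each), with WT 1 the highest library (log2 fold change -0.27 ± 0.18, edgeR adjusted p = 0.47, 0.484 without WT 1). Cdc25c followed the other genes, at 3.20, 2.11 and 5.49 CPM in PKO 1, 2 and 3, against 3.72, 11.1 and 7.11 CPM in WT 1, 2 and 3 (-1.02 ± 0.49, edgeR adjusted p = 0.345).

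All 6 mitotic kinase genes were lowest in WT 1 and highest in WT 2 and WT 3, with a median log2 fold change of -1.25. Over all genes tested, WT 1 was the lowest library for 16.7%, and WT 2 and WT 3 were the highest for 20.4%. Of the 6, 3 were lower at an unadjusted p under 0.05, beside 6.35% of all genes tested. Plk1, the polo kinase that drives mitotic entry and centrosome maturation, was at 19.6, 20.03 and 26.1 CPM in PKO 1, 2 and 3, against 14.6, 63.1 and 60.2 CPM in WT 1, 2 and 3 (-1.07 ± 0.50, edgeR adjusted p = 0.334). Of the Aurora kinases, A acts at the spindle poles and B at centromeres. Aurka was at 13.4, 12.7 and 14.6 CPM in PKO 1, 2 and 3, against 10.8, 41.3 and 41.0 CPM in WT 1, 2 and 3 (-1.19 ± 0.46, edgeR adjusted p = 0.277). Aurkb was at 8.74, 5.52 and 11.2 CPM in PKO 1, 2 and 3, against 4.55, 27.5 and 32.8 CPM in WT 1, 2 and 3 (-1.35 ± 0.66, edgeR adjusted p = 0.346). Aurka was the more even within PKO and Aurkb the more spread, between PKO 2 and PKO 3.

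Ttk (MPS1) and Bub1 are the kinases that start the spindle checkpoint at unattached kinetochores. For Ttk the levels were 4.21, 4.84 and 5.85 CPM in PKO 1, 2 and 3, against 2.30, 15.6 and 14.3 CPM in WT 1, 2 and 3 (-1.11 ± 0.62, edgeR adjusted p = 0.403). For Bub1 they were 12.4, 10.4 and 13.4 CPM in PKO 1, 2 and 3, against 9.63, 41.1 and 39.5 CPM in WT 1, 2 and 3 (-1.31 ± 0.50, edgeR adjusted p = 0.271). Melk, a kinase of proliferating progenitors, was at 5.92, 4.89 and 7.08 CPM in PKO 1, 2 and 3, against 3.72, 27.9 and 25.8 CPM in WT 1, 2 and 3 (-1.68 ± 0.66, edgeR adjusted p = 0.279). All 6 kinases were among the 46 genes that edgeR called lower with WT 1 left out, beside 3.32% of all genes tested. Those calls follow the removal of the WT library in which the kinases were lowest, a choice made with these data in view.

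The 3 checkpoint adaptors had log2 fold changes of -1.69 to -0.02. Bub1b (BUBR1), part of the complex that inhibits CDC20, was at 16.4, 14.7 and 17.7 CPM in PKO 1, 2 and 3, against 12.7, 73.0 and 71.8 CPM in WT 1, 2 and 3 (-1.69 ± 0.58, edgeR adjusted p = 0.246, DESeq2 0.0227). Mad2l1 (MAD2), which joins that complex, was at 11.99, 10.2 and 14.9 CPM in PKO 1, 2 and 3, against 9.10, 29.7 and 28.1 CPM in WT 1, 2 and 3 (-0.85 ± 0.43, edgeR adjusted p = 0.359). Bub3 (chromosome 7, 131560391 to 131571898), the partner that brings BUB1 and BUBR1 to kinetochores, was at 83.2, 74.9 and 95.6 CPM in PKO 1, 2 and 3, against 71.4, 85.8 and 100.2 CPM in WT 1, 2 and 3. Its groups overlap throughout, and the means were 84.6 ± 10.4 CPM in PKO and 85.8 ± 14.4 CPM in WT (SD, n = 3 each; log2 fold change -0.02 ± 0.16, edgeR adjusted p = 0.96). The sign of that value turned with scaling by library size only (0.04) and without PKO 2 or WT 3 (0.07 and 0.10). Per length of transcript Bub3 was also the most abundant of the 55, at a mean of 42.0 FPKM in PKO and 40.9 FPKM in WT, where Cdc20, next in WT, had means of 16.8 FPKM in PKO and 36.3 FPKM in WT.

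**Figure D4:**
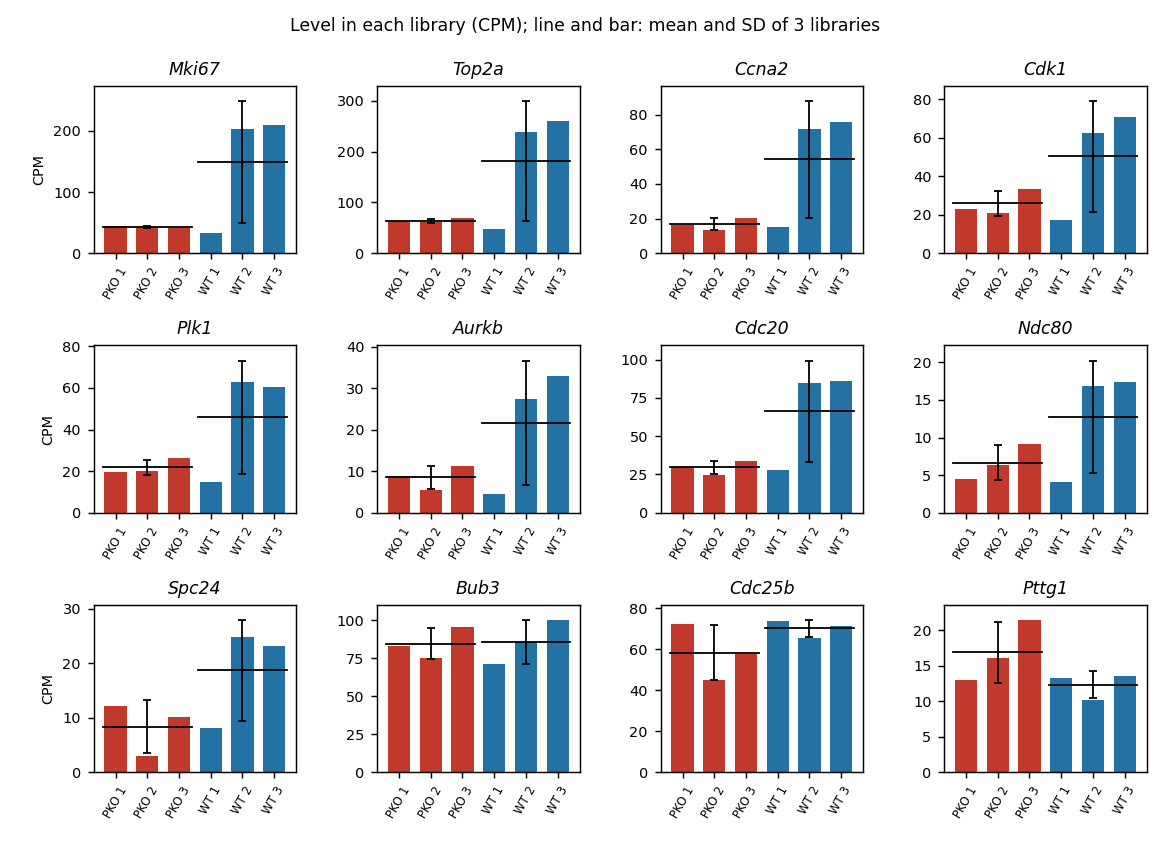
Level in CPM (y axis, a separate scale for each gene, from 0) of 12 of the genes in PKO 1 to PKO 3 and WT 1 to WT 3, with a line and bar for the mean and SD of 3 libraries. The genes from Mki67 to Spc24 show 2 tall WT bars beside a short WT 1 bar, whereas Bub3, Cdc25b and Pttg1 do not.

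The genes that drive and time anaphase were highest in WT 2 and WT 3 with the exception of securin. This order held for 20.4% of all genes tested. Cdc20, the activator of the anaphase-promoting complex, was at 30.1, 24.9 and 33.9 CPM in PKO 1, 2 and 3, against 28.1, 85.1 and 85.9 CPM in WT 1, 2 and 3 (-1.16 ± 0.40, edgeR adjusted p = 0.248, DESeq2 0.0482). Ube2c, the ubiquitin-conjugating enzyme of that complex, was at 28.0, 23.4 and 39.5 CPM in PKO 1, 2 and 3, against 25.9, 75.4 and 83.3 CPM in WT 1, 2 and 3 (-1.02 ± 0.43, edgeR adjusted p = 0.296). Exons of Tnnc2, the fast-muscle troponin C gene, cover 22.8% of the Ube2c exon bases from the other strand. Whether reads of the 2 genes were told apart there is not known, as the strand setting is not given. Espl1 encodes separase, which cuts the cohesin that holds sister chromatids, and had a log2 fold change of -1.40 ± 0.51 (edgeR adjusted p = 0.266). WT 1 lay among the PKO libraries for Cdc20, Ube2c and Espl1.

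Pttg1 (chromosome 11, 43420250 to 43426251), which encodes securin, the inhibitor of separase, was the 1 member with a positive log2 fold change. It was at 13.004, 16.2 and 21.5 CPM in PKO 1, 2 and 3, against 13.3, 10.2 and 13.6 CPM in WT 1, 2 and 3. PKO 2 and PKO 3 lay above every WT library and PKO 1 within them. The means were 16.9 ± 4.27 CPM in PKO and 12.4 ± 1.92 CPM in WT (SD, n = 3 each; log2 fold change 0.45 ± 0.23, edgeR adjusted p = 0.368, and 0.50 with adjusted p = 0.27 without WT 1). Securin and separase, whose proteins bind each other, thus had log2 fold changes of opposite sign, neither past the edgeR threshold, and the difference between them was not tested.

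The chromosomal passenger genes, which with Aurora B correct wrong attachments, had log2 fold changes of -1.22 to -0.95. None of the 3 reached an unadjusted p under 0.05, beside 6.35% lower and 10.2% higher over all genes tested. Birc5 (survivin) was at 10.4, 12.7 and 16.6 CPM in PKO 1, 2 and 3, against 8.74, 39.0 and 44.8 CPM in WT 1, 2 and 3 (-1.22 ± 0.55, edgeR adjusted p = 0.32). Cdca8 (borealin) and Incenp, the scaffold of the complex, were at -1.05 ± 0.53 and -0.95 ± 0.46. WT 1 was the lowest library for each of the 3.

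Centromere and kinetochore genes had a median log2 fold change of -1.15 over 11 members, and WT 1 was the lowest library for 8. Of the 11, 2 were lower at an unadjusted p under 0.05, beside 6.35% of all genes tested. Cenpa, the histone H3 variant that marks the centromere, was at 15.8, 15.8 and 23.5 CPM in PKO 1, 2 and 3, against 13.2, 48.9 and 43.9 CPM in WT 1, 2 and 3 (-0.94 ± 0.46, edgeR adjusted p = 0.346). Cenpf, a large outer kinetochore protein, was at 22.0, 14.7 and 19.1 CPM in PKO 1, 2 and 3, against 17.5, 77.99 and 73.9 CPM in WT 1, 2 and 3 (-1.60 ± 0.52, edgeR adjusted p = 0.223, DESeq2 0.0167). Cenpe, a kinesin of the kinetochore, was at -1.38 ± 0.56 (edgeR adjusted p = 0.286). Cenpt, which links inner centromere and outer kinetochore, was at 28.7, 17.6 and 27.4 CPM in PKO 1, 2 and 3, against 20.1, 41.6 and 36.0 CPM in WT 1, 2 and 3. Its log2 fold change of -0.41 ± 0.31 (edgeR adjusted p = 0.524) was the smallest of the kinetochore genes and did not pass without WT 1 (0.132). Cenpk, Cenpm and Cenpn, other constitutive centromere proteins, were at 1.28 to 5.90 CPM in PKO and 0.768 to 11.0 CPM in WT, with log2 fold changes of -1.16 to -0.78.

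The 4 subunits of the NDC80 complex, which grips the microtubule, had log2 fold changes of -1.37 to -0.68. Ndc80 was at 4.48, 6.37 and 9.13 CPM in PKO 1, 2 and 3, against 4.13, 16.8 and 17.3 CPM in WT 1, 2 and 3 (-0.94 ± 0.54, edgeR adjusted p = 0.41). Its partner Nuf2 was at -1.37 ± 0.60 (edgeR adjusted p = 0.316). Spc25 was at 9.70, 8.25 and 11.5 CPM in PKO 1, 2 and 3, against 5.26, 21.7 and 20.2 CPM in WT 1, 2 and 3 (-0.68 ± 0.49, edgeR adjusted p = 0.505). Spc24, which pairs with Spc25, was at 12.1, 2.96 and 10.1 CPM in PKO 1, 2 and 3, against 8.09, 24.9 and 23.2 CPM in WT 1, 2 and 3 (-1.16 ± 0.59, edgeR adjusted p = 0.363). PKO 2 stood apart for Spc24, with a highest over lowest PKO library of 4.09 times, the widest of the 55, and Spc24 was the 1 subunit of the complex that did not pass without WT 1 (0.146).

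Kinesins, the motors that build and slide the spindle, were highest in WT 2 and WT 3 in each of 11 cases. This order held for 20.4% of all genes tested. Kinesin log2 fold changes were -1.53 to -0.74, with 3 lower at an unadjusted p under 0.05, beside 6.35% of all genes tested. Kif11 (Eg5), which pushes the poles apart, was at 16.3, 12.3 and 20.6 CPM in PKO 1, 2 and 3, against 12.1, 59.7 and 61.5 CPM in WT 1, 2 and 3 (-1.43 ± 0.56, edgeR adjusted p = 0.279). Kif23 (MKLP1), a motor of the midzone, was at 23.4, 14.2 and 22.4 CPM in PKO 1, 2 and 3, against 14.6, 66.4 and 59.2 CPM in WT 1, 2 and 3 (-1.22 ± 0.52, edgeR adjusted p = 0.305). Kif14, a kinesin of cytokinesis, was the scarcest of the 55 per length, at a mean of 0.43 FPKM in PKO and 1.19 FPKM in WT. Its CPM values were 2.45, 4.55 and 4.05 CPM in PKO 1, 2 and 3, against 1.48, 15.3 and 15.3 CPM in WT 1, 2 and 3, which is the widest WT spread of all, 10.4 times. WT 1 was the lowest library for 9 of the 11 kinesins. All 11 were among the genes that edgeR called lower with WT 1 left out, beside 3.32% of all genes tested. Those calls follow the removal of a WT library in which the kinesins were low, a choice made with these data in view. For Kif20a, the midzone kinesin MKLP2, 29.3% of the exon bases overlap those of Cdc23 on the other strand, and for Kif4, a chromokinesin, 15.1% overlap Pdzd11.

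Spindle and cytokinesis genes held 5 of 7 members lower at an unadjusted p under 0.05, beside 6.35% of all genes tested. DESeq2 called 3 of them lower, beside 0.933% of all genes. Ect2, the exchange factor that activates RhoA at the cleavage site, was at 17.96, 18.6 and 21.3 CPM in PKO 1, 2 and 3, against 19.02, 72.0 and 74.6 CPM in WT 1, 2 and 3. It had the smallest p of the 55 (log2 fold change -1.52 ± 0.47, edgeR adjusted p = 0.211, DESeq2 0.0146). Its means were 19.3 ± 1.77 CPM in PKO and 55.2 ± 31.4 CPM in WT (SD, n = 3 each). Racgap1, which holds ECT2 at the midzone, was at 30.4, 27.0 and 34.7 CPM in PKO 1, 2 and 3, against 30.1, 85.5 and 90.5 CPM in WT 1, 2 and 3 (-1.16 ± 0.39, edgeR adjusted p = 0.235, DESeq2 0.0409). Prc1, which bundles midzone microtubules and was the other DESeq2 call, was at -1.23 ± 0.43 (edgeR adjusted p = 0.254, DESeq2 0.047), with 11.1% of its exon bases overlapping Rccd1. WT 1 lay among the PKO libraries for Ect2, Racgap1 and Prc1. Tpx2, which activates Aurora A on spindle microtubules, was at 32.1, 28.5 and 41.5 CPM in PKO 1, 2 and 3, against 24.3, 87.1 and 97.1 CPM in WT 1, 2 and 3 (-1.03 ± 0.47, edgeR adjusted p = 0.326). Nusap1, Hmmr and Anln, which bundle microtubules, organise poles and scaffold the contractile ring, had log2 fold changes of -1.25, -0.96 and -1.27.

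Both transcription factor genes of the late cell cycle were highest in WT 2 and WT 3, as were 20.4% of all genes tested. Foxm1 was at 16.7, 18.3 and 15.5 CPM in PKO 1, 2 and 3, against 15.1, 62.4 and 56.1 CPM in WT 1, 2 and 3 (-1.40 ± 0.47, edgeR adjusted p = 0.24, DESeq2 0.0328). Mybl2 (B-MYB) was at 5.49, 5.06 and 6.62 CPM in PKO 1, 2 and 3, against 3.19, 25.7 and 22.9 CPM in WT 1, 2 and 3 (-1.59 ± 0.66, edgeR adjusted p = 0.296, DESeq2 0.0896). WT 1 was the lowest library for both.

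The genes that did not pass without WT 1 were 9, namely Bub3, Cdc25b, Pttg1, Cenpt, Ccnb2, Cdc25c, Spc24, Cenpm and Cenpn. They were found on either side of the promoter description given above. Genes with both a CCAAT box and a CHR had a median log2 fold change of -1.16 (31 genes, -1.81 for Mki67 to -0.02 for Bub3), and genes with neither a median of -1.23 (8 genes, -1.68 for Melk to 0.45 for Pttg1). Bub3, Cdc25b, Ccnb2, Cenpm and Cenpn hold both motifs, Pttg1 and Cenpt neither, and Cdc25c and Spc24 had no window.

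Mitotic genes outside the 55 were likewise mostly highest in WT 2 and WT 3. Of 69 other mitotic genes, among them condensin, centrosome and further kinetochore genes, 68 had log2 fold changes below 0 (median -0.95). At an unadjusted p under 0.05, 25 were lower and 1 higher, beside 6.35% lower and 10.2% higher over all genes tested. DESeq2 called 4 lower and 1 higher, beside 0.933% and 4.73% of all genes. On a log2 scale relative to the WT mean, the median of this list stood at -0.70, -0.88 and -0.61 in PKO 1, 2 and 3, against -1.24, 0.59 and 0.58 in WT 1, 2 and 3. For the 55 genes that median was -0.96, -1.07 and -0.61 in PKO 1, 2 and 3, against -1.32, 0.66 and 0.66 in WT 1, 2 and 3. After Zwint, which had the smallest p of the list, came Ncapg2 (condensin II) and Aspm (a spindle pole protein) at -1.53 ± 0.45 and -1.63 ± 0.50 (edgeR adjusted p = 0.203 and 0.21; DESeq2 0.0118 and 0.0131). Zwint, the gene with a log2 fold change above 0, encodes a kinetochore protein that recruits dynein and checkpoint factors. It was at 119, 158 and 169 CPM in PKO 1, 2 and 3, against 104, 96.9 and 91.3 CPM in WT 1, 2 and 3. Every PKO library lay above every WT library for Zwint (log2 fold change 0.61 ± 0.15, edgeR adjusted p = 0.19, DESeq2 0.031). Of the 69 genes, 3 lay wholly lower and 1 wholly higher in PKO, beside 9.7% and 11.8% of all genes tested.

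The log2 fold change was negative for all 40 DNA replication genes (median -0.81). At an unadjusted p under 0.05, 12 were lower and 0 higher, beside 6.35% lower and 10.2% higher over all genes tested. DESeq2 called 4 lower, beside 0.933% of all genes. The leading gene, Cdc45 of the replicative helicase, was at 6.98, 6.43 and 9.49 CPM in PKO 1, 2 and 3, against 9.92, 21.3 and 22.3 CPM in WT 1, 2 and 3 (-1.22 ± 0.34, edgeR adjusted p = 0.19, DESeq2 0.0163). Its groups did not overlap, and it was the 1 gene of the 40 that lay wholly lower in PKO, beside 9.7% of all genes tested. Mcm10, a helicase activator, and Uhrf1, which carries DNA methylation through replication, were at -1.59 ± 0.56 and -1.46 ± 0.53. The ratio of the summed CPM of the 55 mitotic genes to that of the 40 replication genes was 1.41, 1.35 and 1.43 in PKO 1, 2 and 3, against 1.45, 1.66 and 1.73 in WT 1, 2 and 3. Mitotic transcripts were thus higher relative to replication transcripts in WT 2 and WT 3 than in the other 4 libraries.

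The core subunits of the anaphase-promoting complex, which cells keep in G1 as well, had a median log2 fold change near 0. The log2 fold change was negative for 8 of 14, with a median of -0.01, and 0 passed in edgeR (0 at an unadjusted p under 0.05) or in DESeq2. Anapc11, the RING subunit, had the smallest p at 0.34 ± 0.17, followed by Anapc1 at -0.38 ± 0.20 and Cdc27 at -0.25 ± 0.13. The median of MuvB core and DREAM partner genes was -0.17 (8 of 14 negative), with 1 lower at an unadjusted p under 0.05, beside 6.35% of all genes tested. That gene was E2f4, a repressor of cell cycle genes in resting cells, at 122, 101 and 110 CPM in PKO 1, 2 and 3, against 138, 152 and 154 CPM in WT 1, 2 and 3 (-0.42 ± 0.12, edgeR adjusted p = 0.192, DESeq2 0.0821). Its partner Tfdp1 was at -0.44 ± 0.20 and the pocket protein gene Rbl1 at -0.96 ± 0.49, both with WT 1 below every PKO library.

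**Figure D5:**
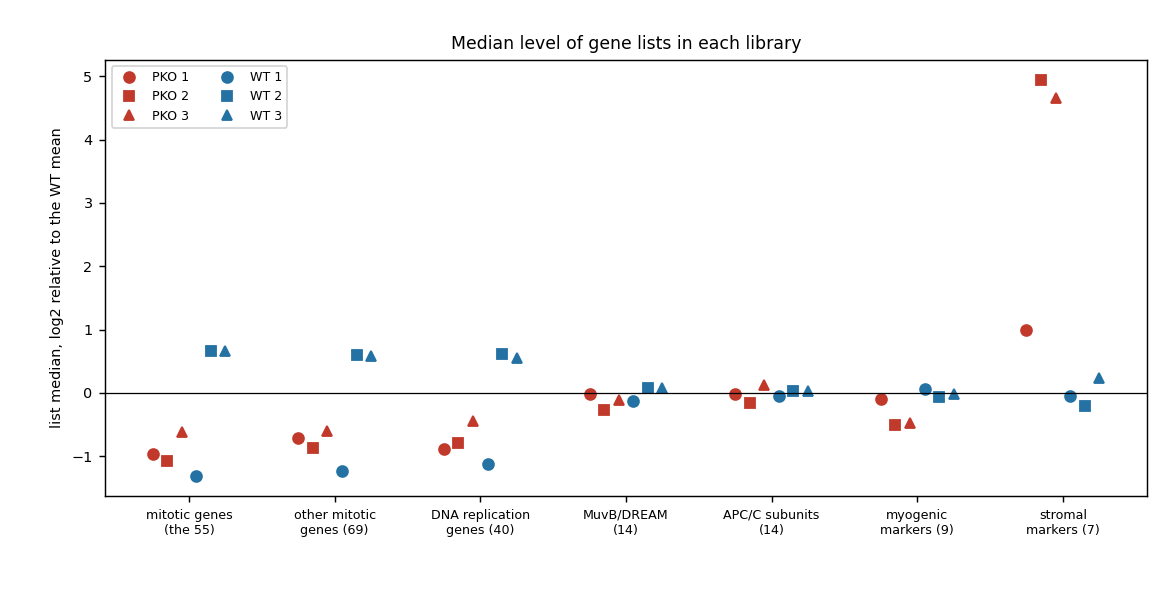
Median level of each gene list in each library (y axis, log2 relative to the mean of the 3 WT libraries; PKO and WT libraries in 2 colours, one symbol per replicate number). The 55 mitotic genes, the 69 other mitotic genes and the 40 replication genes have WT 2 and WT 3 on top and WT 1 lowest, the anaphase-promoting complex subunits lie near 0, and stromal markers are high in PKO 2 and PKO 3.

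Markers of cell types differed between libraries too, and their part in the mitotic values was not tested. All 9 myogenic markers were detected, with a summed level of 12008 to 16890 CPM in PKO and 17466 to 19972 CPM in WT, highest in WT 1. Pax7, the satellite cell factor, was highest in WT 2 and WT 3, at 56.3, 43.6 and 41.2 CPM in PKO 1, 2 and 3, against 44.5, 114 and 107 CPM in WT 1, 2 and 3. Myf5 and Itga7 were also highest in WT 2 and WT 3, at 28.6, 62.9 and 60.8 CPM and at 958, 1475 and 1347 CPM in WT 1, 2 and 3. Cdh15 was too, by a small margin, at 675, 725 and 688 CPM in WT 1, 2 and 3. The remaining markers of the list were ordered differently: among WT libraries, Myod1, Myog, Des, Tmem8c and Myh3 were highest in WT 1. All 9 myogenic log2 fold changes were negative (median -0.27), beside 51.7% of all genes tested. At an unadjusted p under 0.05, 3 were lower, beside 6.35% of all genes tested. DESeq2 called 1 lower (Itga7, adjusted p = 0.0135), beside 0.933% of all genes. Of the 9, 4 were wholly lower in PKO (Myog, Cdh15, Itga7 and Myh3), beside 9.7% of all genes tested. Myh3 was at 7314, 4791 and 4208 CPM in PKO 1, 2 and 3, against 9760, 7981 and 8535 CPM in WT 1, 2 and 3. Stromal markers summed to 565, 2603 and 1630 CPM in PKO 1, 2 and 3, against 433, 313 and 351 CPM in WT 1, 2 and 3. Of 10 listed, 7 were tested, and all 7 were higher at an unadjusted p under 0.05, beside 10.2% of all genes tested. DESeq2 called all 7 higher at its adjusted p under 0.05, beside 4.73% of all genes. For 6 of the 7, every PKO library lay above every WT library, beside 11.8% of all genes tested. Dpt was at 0 in PKO 1 and in all 3 WT libraries. Schwann cell markers summed to 1.81 to 4.88 CPM in PKO and 0.77 to 3.72 CPM in WT. Endothelial markers summed to 6.87 to 12.7 CPM in PKO and 2.54 to 4.39 CPM in WT, and leukocyte markers to 3.62 to 5.58 CPM in PKO and 2.07 to 2.88 CPM in WT. Among tested markers, DESeq2 called 2 endothelial, 1 pericyte and 0 leukocyte markers higher, beside 4.73% of all genes. Pericyte markers summed to 213 to 294 CPM in PKO and 210 to 275 CPM in WT, but their orders were opposite. Rgs5 was at 106, 39.6 and 151 CPM in PKO 1, 2 and 3, against 41.9, 4.13 and 5.42 CPM in WT 1, 2 and 3. Cspg4 was at 23.8, 53.7 and 22.6 CPM in PKO 1, 2 and 3, against 16.4, 7.53 and 11.8 CPM in WT 1, 2 and 3. Notch3 was at 165, 120 and 84.2 CPM in PKO 1, 2 and 3, against 152, 262 and 257 CPM in WT 1, 2 and 3.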

How the data were processed

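Polyadenylated RNA of 3 PKO and 3 WT libraries was read from 1 deposited table, with groups and replicate numbers from the sample titles; it held 0 columns of other samples. The authors, per the submitters' processing notes, mapped paired reads of 150 bp with TopHat2 to GRCm38 and counted reads per gene with HTSeq 0.6.1. The sources used here name neither the annotation version nor the strand setting. In GENCODE M21, 16 of the 55 genes overlap another gene's exons, 14 of them on the opposite strand only. How reads from such shared exons were assigned is therefore not known. Deposited read counts were the base of every test. The FPKM values, which the authors computed from counts and gene length, were used to compare levels between genes. The deposited normalized signal was not used. The log2 fold changes and p-values that the authors deposited (DESeq2 or edgeR, per the series text) were used only where their table is named. Coordinates are as deposited.

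Genes kept by filterByExpr (14025, all 55 members passed) were fitted with edgeR 4.0.16 in R 4.3.3 (TMM, robust quasi-likelihood fit, genotype as the only term, Benjamini-Hochberg adjusted p under 0.05 over all genes tested). Standard errors of edgeR log2 fold changes were derived from the test, as the absolute log2 fold change divided by the square root of the F statistic. Log2 levels used a prior count of 2. Alternatives were DESeq2 1.42.0, limma-voom (limma 3.58.1), RLE or upper-quartile factors, plain library size, no low-count filter, a minimum mean of 1 CPM, the replicate number as a block, each library left out, and WT 1 and PKO 1 left out together. The fit was tested on simulated data. Total counts were 15580176 to 18839151 per library. Counting error was not compared with the library-to-library spread of each member. Within a genotype, WT 2 and WT 3 were the nearest pair, with a chi-square of 6.61 per degree of freedom over genes. The other pairs within a genotype ran from 56.6 to 80.8. No library was thus a copy of another of its genotype, but whether WT 2 and WT 3 are independent cultures is not in the labels.

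Named genes followed a rule: a set of 25 genes covering each role in every library, the 5 members with the smallest and the 5 with the largest p, members with a positive log2 fold change, and the 3 smallest p in each other list; Melk, Cdc25c, Spc25's partner Spc24 and Kif14 were added after their values were seen. The 55 members, the 4 other lists (137 genes, all found) and the alternatives were chosen with earlier results of these data known. Promoter sequences are from RefSeq.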

Additional observations from a re-analysis of the deposited data

How the results depend on the processing

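The direction of the members' median log2 fold change held in every alternative run (-1.59 to -0.89), but calls depended on single libraries. Over all genes the count called was 0 in the edgeR fit, 917 with DESeq2 (151 lower, 766 higher), 0 with limma-voom, 1 with the replicate block and 2266 without WT 1 and PKO 1, and leaving out 1 library gave 0 to 1000 (737 without PKO 1, 1000 without WT 1). Members called were 0 in the edgeR fit, 10 with DESeq2, 0 to 46 with 1 library left out (46 without WT 1, 0 without any other) and 46 without WT 1 and PKO 1. For DNA replication genes DESeq2 called 4, leaving out 1 library gave 0 to 24, and leaving out WT 1 and PKO 1 gave 26. For other mitotic genes the counts were 5, 0 to 47 (1 without PKO 1) and 48, and for MuvB and DREAM genes 0, 0 to 3 and 4. Anaphase-promoting complex subunits gave 0 in each. Pnpla2 passed with DESeq2 (-1.23, adjusted p = 0.00796), without WT 1 (-1.44, 0.0355) and without WT 1 and PKO 1 (-1.20, 0.00734), and ran from -1.44 to -0.98 with 1 library left out. The sign of Bub3 turned with library size only (0.039), and with 1 library left out it ran from -0.14 to 0.10 (0.07 without PKO 2, 0.10 without WT 3), and that of the anaphase-promoting complex median with library size only (0.045), with -0.079 to 0.060 when 1 library was left out (0.060 without PKO 2). Fewer samples enter each fit that leaves libraries out; beyond this the cause of these changes was not tested. Same-numbered libraries did not all deviate together (correlations of 0.103, -0.025 and 0.129), nor did each library correlate best with its own number, so the numbers were not taken as pairs, and the replicate block called 0 members. The smallest single member count was 13, for Cenpm in WT 1, and the effect of depth on single members was not tested.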

Other observations

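Among 10384 genes outside the lists with a mean of at least 5 CPM, the 10 whose log2 CPM ranked closest to the mean of the 55 by Pearson correlation over the 6 libraries were Rpa1, Fabp5, Map4k2, 9430015G10Rik, Fam64a, Hn1l, Eftud2, Hnrnph1, C330027C09Rik and Nup85. With 4 libraries low and 2 high, that ranking mostly reads the gap between WT 2 and WT 3 and the rest, so no coefficient is given. Rpa1, a subunit of the single-strand DNA binding protein of replication, was at 66.9, 64.4 and 73.2 CPM in PKO 1, 2 and 3, against 59.95, 112 and 110 CPM in WT 1, 2 and 3. Fabp5, a fatty acid binding protein, was at 21.7, 18.04 and 23.6 CPM in PKO 1, 2 and 3, against 16.6, 50.9 and 54.0 CPM in WT 1, 2 and 3. The 5 most opposite genes were Slc6a9, Ube2h, Trim44, Rdh10 and Plekhm2. Slc6a9, a glycine transporter, was at 17.4, 19.5 and 14.7 CPM in PKO 1, 2 and 3, against 22.3, 6.68 and 6.68 CPM in WT 1, 2 and 3, and so was highest in WT 1 and lowest in WT 2 and WT 3.

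Zwint was the 1 gene of the 69 other mitotic genes to pass edgeR without PKO 1 (adjusted p = 0.0266), as a higher level in PKO, and it passed without WT 1 and PKO 1 together (0.0129) but not without WT 1 alone (0.0778).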
